A study of Apis mellifera with 12 samples.

Results

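Female and male honeybee embryos at 10–15 h after egg laying were compared by the RNA levels of 7789 loci, chosen from the 17621 loci that each library lists. A locus was kept when Cufflinks gave a valid estimate in all 4 libraries of this age and its mean over them was at least 1 FPKM, a measure of fragments scaled to transcript length and to all mapped fragments. Whole wild-type embryos came from feral colonies of the subspecies *Apis mellifera carnica*. There were 2 female and 2 male libraries of poly(A) RNA, each from a pool of 100 embryos of 3 mothers. No group carried a transgene or a drug treatment by the labels. The remaining 8 libraries of the series were 2 of each sex at 25–40 h and at 55–70 h. They served to estimate the spread, as a comparison and in the alternative scalings given below. For its honeybees the study's methods describe diploid females from naturally mated queens and haploid males from unmated queens treated with carbon dioxide. If this holds for these pools, the sex of the embryo and the kind of mother cannot be told apart. The labels give 5–15 h for the egg collection and leave unsaid whether 2 pools of a group were separate collections. The p-values therefore describe the spread among these libraries, and part of it may be technical.

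In insects the egg is filled with RNA and proteins from the mother, and the first nuclear divisions run on this store before the embryo's own genome takes over. The store holds genes for energy supply and protein synthesis, for the copying and separation of chromosomes, for the control of RNA, and for the first body axes. In the honeybee sex is set by *csd* and *fem*, whose female form of splicing keeps the female path. FPKM do not tell RNA from the mother and RNA from the embryo apart, and in whole embryos fewer cells of a type and less RNA per cell cannot be told apart.

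At this age 4 of 8 mitochondrially encoded genes were called higher in females. Lower in females were 12 of 19 DNA replication factors, 6 of 8 condensin and cohesin genes, 7 of 18 kinesins, 8 of 17 DNA repair genes and 8 of 24 chromatin regulators. Of the 7789 loci, 338 were higher in females (4.34%) and 1096 were lower (14.1%) in limma's test on log2(FPKM + 1) over all 12 libraries, at a Benjamini–Hochberg adjusted p under 0.05. The median difference of all loci, female minus male, was −0.18 on this log2 scale. The direction of the calls depended on the scaling. With median-ratio scaling 1046 loci were higher and 1086 lower, and the higher share of the calls went from 23.6% to 49.1%. Its factors were taken over all 12 libraries, so the typical locus was not set equal between the sexes at this age. The median difference was 0.11, so this scaling moved it from below 0 to above 0. How far this shift made up the larger higher share was not tested. Under FPKM, median-ratio scaling and quantile normalization together, 330 loci were higher (4.24%) and 943 lower (12.1%). Each gene given below as higher or lower was called under these 3 scalings unless stated otherwise. The share of all loci printed beside a gene list is not matched to it. It includes loci without a name, which were called lower less often than loci with a gene name, and the lists hold no such loci. A share lower that is near 14.1%, as for cell cycle regulators, patterning genes, translation factors and splicing factors, is therefore not read as an excess.

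The calls rest on 2 libraries a sex. Without male replicate 1 the counts were 2 higher and 10 lower, without male replicate 2 they were 26 and 54, and without female replicate 2 they were 46 and 37. In those fits 425, 610 and 703 loci were higher and 1404, 1288 and 1016 lower at an unadjusted p under 0.05. Leaving out female replicate 1 gave 253 and 966. Of the 1434 called loci 943 were still called without female replicate 1, 63 without female replicate 2, 11 without male replicate 1 and 69 without male replicate 2. The sign of a locus whose sexes do not overlap cannot change when a library is left out, so nothing is read from the signs. Leaving out a library leaves its group with a single library, which is then assumed to vary like the other groups. Without female replicate 2 most calls in the lists were lost, while the median of all loci was −0.08. In that fit the list median was −0.83 with 0 loci called lower for DNA replication, −1.38 with 0 for condensin and cohesin, −0.90 with 0 for kinesins, −0.80 with 0 for DNA repair, −0.56 with 0 for chromatin regulators, and −0.46 with 0 for the localisation, control and decay of mRNA. The germ line, splicing and patterning lists each had 1 locus called lower. The mitochondrial genome had a median of 1.64. For a single gene an exact permutation test of 2 against 2 libraries cannot give a two-sided p below 0.333.

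**Figure D1:**
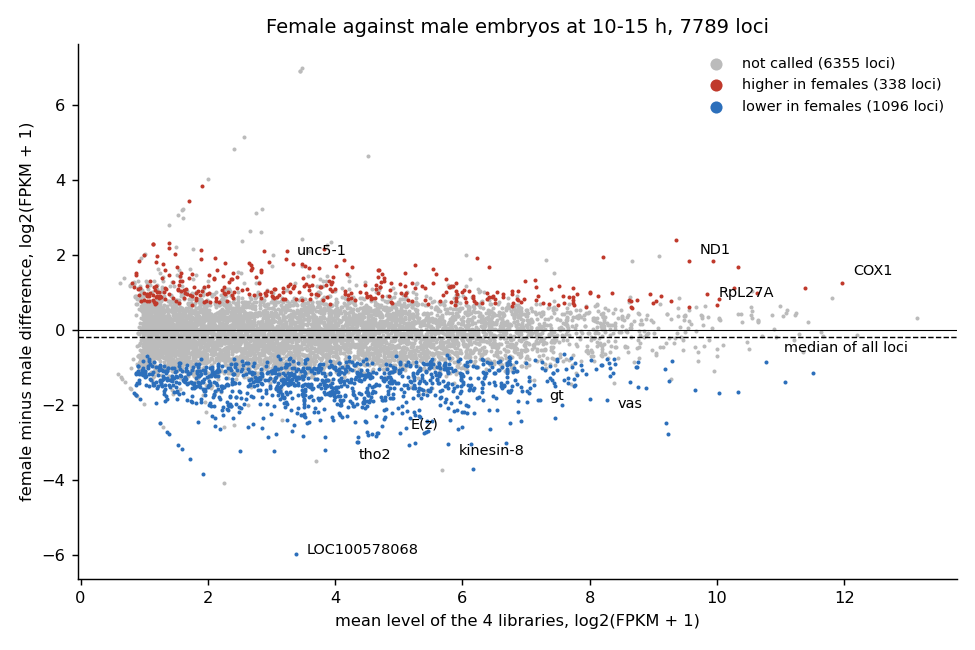
Female minus male difference at 10–15 h (y axis, log2(FPKM + 1)) against the mean level of the 4 libraries (x axis, log2(FPKM + 1)) for 7789 loci, each a point. The 338 loci higher in females are red, the 1096 lower are blue, and the dashed line marks the median of all loci at −0.18.

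The 2 male libraries were closer to each other than the 2 female libraries. Across the 7789 loci the rank correlation was 0.977 between the male and 0.947 between the female libraries, and 0.877 to 0.924 between libraries of different sex. Female replicate 2 was below female replicate 1 at 76.2% of all loci, at 92.7% of the loci called lower and at 48.8% of those called higher. Its part in the result was not tested. The median difference of all loci was −0.08 without female replicate 2 and −0.31 without female replicate 1. In this library 3 loci without a name reached 14236 to 15660 FPKM and held 10.4% of its FPKM sum, while each was listed at 0 in the other 3 libraries. None of these 3 was called. The FPKM of a library summed to 426254 to 470383, and the width of the confidence bounds put the depth of the other libraries at 1.01 to 1.21 times that of female replicate 1. The numbers of reads are not given, and 21.5% to 26.8% of the values at kept loci lay outside their own confidence bounds.

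Few loci made up much of the RNA pool. Between 52 and 58 kept loci per library reached 1000 FPKM, and 37 did so in all 4 libraries. Of these 37, 3 were higher and 3 lower in females, beside 4.34% higher and 14.1% lower of all loci. Without the 3 loci named above as particular to female replicate 2, the most abundant 211 and 192 loci held 50% of the kept FPKM in the female libraries, and 285 and 280 in the male libraries. Calls in both directions occurred at every level. The share called lower was 8.94% at a mean of 1 to 5 FPKM, 15.9% at 5 to 20, 18.7% at 20 to 100 and 15.5% from 100 FPKM, and the share called higher was 4.13%, 3.63%, 4.19% and 7.52%.

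The most abundant locus of a single gene was *LOC726487* on chromosome 1, with 11878 and 8617 FPKM in the female and 7365 and 9005 FPKM in the male libraries. The sexes overlapped at this locus, with a difference of 0.31 (adjusted p = 0.65). *LOC100578887* on chromosome 4 had 4379 and 4607 FPKM in females and 4476 and 5454 in males, with a difference of −0.14 (adjusted p = 0.767). Neither gene was called, and neither has a role given in the sources used here. *LOC408799* had 4230 and 2216 FPKM in females and 3441 and 3457 in males, and unlike these loci it was higher in every later library, at 7204 to 25275 FPKM. *Tom7*, a small subunit of the channel through which proteins enter mitochondria, had 4007 and 2416 FPKM in females and 3061 and 3482 in males, with a difference of −0.07 (adjusted p = 0.867).

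A few abundant loci did differ. *LOC100577833* on chromosome 1 had 2063 and 1861 FPKM in females against 4248 and 4371 in males, with a difference of −1.14 (standard error 0.19, adjusted p = 0.00777). *LOC100576271* on chromosome 9 had 3686 and 4164 FPKM in females against 1810 and 1818 in males, with a difference of 1.11 (standard error 0.32, adjusted p = 0.0371), and was not called under all 3 scalings. Its later course was opposite. At 25–40 h the female libraries had 9.04 and 13.3 FPKM and the male libraries 377 and 178 FPKM, and by 55–70 h all 4 libraries were at 3.35 to 5.26 FPKM. The difference at 10–15 h exceeded that averaged over the later ages by 3.17 (standard error 0.39, adjusted p = 0.00877 from limma). *LOC408817* on chromosome 4 showed no such gap at 10–15 h (2348 and 2461 FPKM in females, 2460 and 2749 in males), then 40.7 and 47.5 in females against 959 and 576 in males at 25–40 h. At both loci the female libraries of 25–40 h lay below the male libraries, and at 10–15 h neither was called lower in females.

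This course was common among abundant loci whose level fell with age. With valid estimates in all 12 libraries, 766 kept loci averaged 100 FPKM or more at 10–15 h. Of these, 106 were at 55–70 h at no more than 0.1 of that level, taken over both sexes. The 106 include the 3 unnamed loci at 14236 to 15660 FPKM in female replicate 2, which reach 100 FPKM through that library alone. The same holds for unnamed loci at 1254 and 803 FPKM in that library, listed at 0 in the other libraries of 10–15 h. At 10–15 h 21 of the 106 were lower in females (19.8%, beside 14.1% of all loci) and 3 were higher, and the median level was 245 and 225 FPKM in the female and 294 and 262 FPKM in the male libraries. At 25–40 h it was 20.4 and 15.1 FPKM in females and 99 and 68.6 FPKM in males, and at 55–70 h it was 7.57 and 8.21 against 11.4 and 9.61 FPKM. Over the 3 ages the median difference was −0.10, −1.85 and −0.28, and 0.25, −1.72 and −0.05 with median-ratio scaling. At 25–40 h both female libraries were below both male libraries at 95 of the 106 loci and above them at 0, while among the 766 loci these numbers were 360 and 199. The levels that define this set were chosen after the values were seen, and they use both sexes together. The pools of that age span 25–40 h, and the age of the embryos within this span and their sex cannot be told apart.

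Some large RNA pools could not be compared. *mael*, which in *Drosophila* acts in the piRNA pathway of the germ line, had 10230 and 6257 FPKM in the female libraries, and both male libraries exceeded Cufflinks' limit on fragments at this locus and have no estimate. *tral*, an RNA-binding protein of the oocyte in *Drosophila*, had 4187 and 3347 FPKM in females and 4698 in male replicate 1, and exceeded the limit in male replicate 2. In all, 9 and 11 loci passed this limit in the male libraries against 0 and 1 in the female libraries. Overlapping and neighbouring loci share the status. Of the 9 loci 7 lie together on chromosome 5, where *LOC100578903* had 6823 and 3751 FPKM in females and *LOC406145* 0.0684 and 0 FPKM, and the other 2 are both named *mael*. An unnamed locus of the mitochondrial genome had 15886 FPKM in female replicate 1 and 8381 and 7166 FPKM in males, and passed the limit in female replicate 2. These loci were chosen after their values were seen, and no sex difference is given for them.

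Each of the 8 tested mitochondrially encoded genes had both female libraries above both male libraries, as did 1870 of all 7789 loci. Of the 8, 4 were called higher (50%, beside 4.34% of all loci). The median difference of the 8 was 1.74, beside −0.18 for all loci. *COX1*, the catalytic subunit of cytochrome c oxidase, had 5549 and 6922 FPKM in females and 2839 and 2366 in males, or 1.26 more on the log2 scale (standard error 0.29, adjusted p = 0.0174). *CYTB*, of the cytochrome bc1 complex, had 2162 and 2457 FPKM against 781 and 672 FPKM, a difference of 1.67 (adjusted p = 0.0185). *ND1*, a subunit of complex I, had 1336 and 1500 FPKM against 425 and 372 FPKM, a difference of 1.83 (adjusted p = 0.019). *ND2*, of the same complex, had 583 and 575 FPKM against 203 and 109 FPKM, a difference of 1.95 (adjusted p = 0.0369). The 4 genes that were not called had differences of 1.03 to 1.85 with adjusted p of 0.0666 to 0.181. The 8 genes together took 2.73% and 3.58% of the FPKM in the female libraries and 1.39% and 1.09% in the male libraries. The median of the 8 was 0.33 at 25–40 h and −0.10 at 55–70 h. The test of the change from 10–15 h to the later ages passed for 0 of the 8 genes, with adjusted p of 0.0762 for *COX1* and 0.0783 for *ND1*.

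The nuclear genes of oxidative phosphorylation, which build the same complexes, went both ways. Of 26 tested, 5 were higher (19.2%) and 2 lower (7.69%), with a median of 0.12. *Cox6a1* had 149 and 127 FPKM in females and 64.4 and 76.6 in males, a difference of 0.96 (adjusted p = 0.0129). *SdhA*, the catalytic subunit of succinate dehydrogenase, had 84.6 and 106 FPKM in females and 58.3 and 47.2 in males, a difference of 0.84 (adjusted p = 0.0278). *CytC* was lower at a low level, with 0.77 and 0.275 FPKM against 3.53 and 5.42 FPKM, a difference of −1.84 (adjusted p = 0.00736). *RFeSP*, the iron–sulfur protein of the bc1 complex, was also called lower, at −0.81, but not under all 3 scalings. Of 43 mitochondrial ribosomal proteins, 1 was higher (2.33%, beside 4.34% of all loci) and 2 were lower (4.65%, beside 14.1%). *mRpL12* was the higher gene, with a difference of 1.12, and *mRpS22* had the larger of the lower differences, −1.55. The 43 had a median of −0.19, which was 0.12 with median-ratio scaling.

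Of 50 cytosolic ribosomal protein genes tested, 37 had a difference above 0 and the median was 0.32, while 5 were called higher (10%, beside 4.34% of all loci) and 0 lower. *RpL27A* had 1346 and 1220 FPKM in females and 636 and 685 in males, a difference of 0.96 (adjusted p = 0.0141). *RpLP2*, a stalk protein of the large subunit, differed by 0.88, *RpL35A* by 0.80 and *RpSA* of the small subunit by 0.79, with adjusted p of 0.0252, 0.0244 and 0.016. Over the later ages the median of the 50 genes was 0.64, beside −0.18 for all loci. Of the 50, 33 were called higher then, beside 175 of all 7781 loci tested at those ages.

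**Figure D2:**
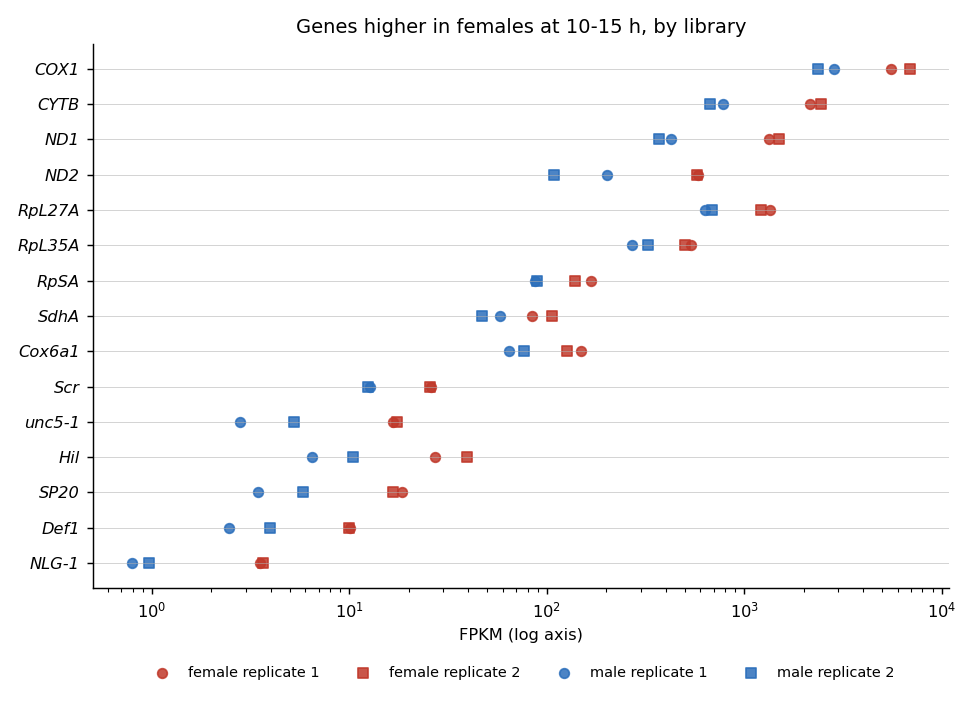
FPKM of 15 genes called higher in females at 10–15 h (x axis, log scale), in the 2 female libraries (red) and the 2 male libraries (blue). In each row both female points lie above both male points, as the rule for named genes requires. The rows run from *COX1* at 2366 to 6922 FPKM down to *NLG-1* at 0.789 to 3.66 FPKM.

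Genes that copy DNA were lower in females. Of 19 replication factors 12 were called lower (63.2%, beside 14.1% of all loci) and 0 higher, and 11 of the 12 were called under all 3 scalings. Their median difference was −1.14. *DNApol-alpha50*, which makes the primers for DNA polymerase, on chromosome 14 from 6920657 to 6922384, had 13 and 11.2 FPKM in females and 47.3 and 66.8 in males, which is −2.13 on the log2 scale (standard error 0.32, adjusted p = 0.00672). *RpA-70*, which binds single-stranded DNA, had 3.05 and 0.833 FPKM against 12.4 and 17 FPKM, a difference of −2.51 (adjusted p = 0.0121). *RnrS*, the small subunit of the enzyme that makes deoxyribonucleotides, had 11 and 6.81 FPKM against 35.5 and 27.9 FPKM, a difference of −1.75 (adjusted p = 0.0107). *Orc1*, of the complex that marks replication origins, had 1.67 and 1.09 FPKM against 6.31 and 7.33 FPKM, a difference of −1.72 (adjusted p = 0.0128). The sexes do not overlap at these 4 because the rule for named genes requires it. At all 4 female replicate 2 was the lowest. The 19 factors had a median of 0.03 at 25–40 h, then −0.25 at 55–70 h. The change from 10–15 h to the later ages passed limma's test for 5 of the 19, beside 5.83% of all loci. Among the 5 were these 4 genes, with *RpA-70* and *Orc1* at adjusted p of 0.0448 each. The 4 were named by their difference at 10–15 h, which favours such a result, so nothing is read from it. With a replicate block the count over all loci went from 454 to 4.

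The machinery that condenses and holds chromosomes was lower as well. Of 8 condensin and cohesin genes 6 were called lower (75%, beside 14.1% of all loci), and the median was −1.58. All 8 had both female libraries below both male libraries, as did 3437 of all 7789 loci. *SMC4*, a core condensin subunit, had 1.39 and 0.897 FPKM in females and 7.75 and 11.2 in males, a difference of −2.28 (adjusted p = 0.0204). *CAP-D2* of the same complex differed by −2.02 (adjusted p = 0.0292). *SMC1*, a core cohesin subunit, had 10.3 and 5.37 FPKM against 32.2 and 34.3 FPKM, a difference of −2.01 (adjusted p = 0.0135). *eco*, which acetylates cohesin, differed by −1.68 (adjusted p = 0.0217).

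Of 18 kinesins, the motor proteins of microtubules, 7 were called lower (38.9%, beside 14.1% of all loci) and 0 higher, with a median of −1.08. *kinesin-8*, on chromosome 1 from 12015076 to 12018410, had 23.4 and 13.8 FPKM in females and 169 and 144 in males, or −3.05 on the log2 scale (standard error 0.47, adjusted p = 0.00687). *kinesin-A* had 3.09 and 1.49 FPKM against 17.1 and 25.6 FPKM, a difference of −2.78 (adjusted p = 0.0141). *kinesin-5A* and *kinesin-4B* differed by −1.89 and −1.73. The differences ran from −3.05 to 0.43, so not every member was lower. Of 12 spindle and centrosome genes, 3 were lower (25%, beside 14.1% of all loci). These were *dgt1*, of the augmin complex in *Drosophila*, at −1.68, *SAK*, the kinase that starts centriole copying, at −1.55, and *msps*, which lengthens microtubules, at −1.40.

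Of 23 cell cycle regulators 4 were lower (17.4%, beside 14.1% of all loci) and 2 higher (8.7%, beside 4.34%), and the median was −0.60. *polo*, a mitotic kinase, differed by −1.40 (adjusted p = 0.0252), from 47.4 and 31.9 FPKM in females to a male mean of 104 FPKM. *TXBP181-like*, *lok*, a checkpoint kinase, and *wee*, a kinase that holds back mitosis, differed by −1.94, −1.84 and −1.34. The higher 2 were *Myb*, a transcription factor, at 1.12, with 48.6 and 63.2 FPKM in females and 22.1 and 28.1 in males, and *Cdk4* at 0.89, both outside the rule for named genes and named after their values were seen. Among 17 DNA repair genes 8 were lower (47.1%, beside 14.1% of all loci) and 0 higher, with a median of −1.03. *Rad54*, a recombination factor, had 14 and 9.71 FPKM against 44.5 and 41.8 FPKM, a difference of −1.80 (adjusted p = 0.0103), and *rad50*, *spel1* and *RecQ4* differed by −1.75, −1.44 and −1.37. Of 6 chromatin assembly genes 3 were lower (50%, beside 14.1% of all loci): *Acf1* at −1.77 and its partner ATPase *Iswi* at −1.62, and *dre4* at −1.44. The fit of *dre4* lacked 2 later libraries with a failed estimate.

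**Figure D3:**
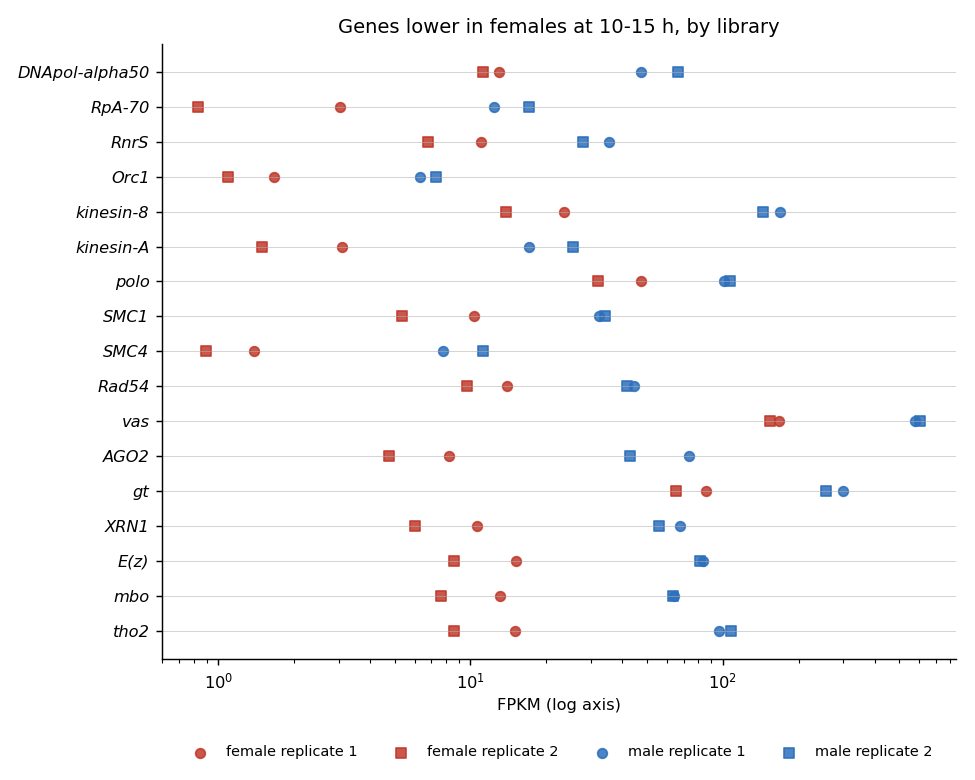
FPKM of 17 genes called lower in females at 10–15 h (x axis, log scale), in the 2 female libraries (red) and the 2 male libraries (blue). In each row both female points lie below both male points, as the rule for named genes requires. The square of female replicate 2 is the lowest, for example *kinesin-8* at 13.8 and 23.4 against 144 and 169 FPKM.

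Genes of the germ line and of RNA control included some of the largest differences. *vas*, a germ-cell RNA helicase, on chromosome 1 from 28621929 to 28626138, had 167 and 154 FPKM in females and 578 and 608 in males, or −1.88 on the log2 scale (standard error 0.28, adjusted p = 0.00672). *AGO2*, an Argonaute that binds small interfering RNAs, had 8.21 and 4.77 FPKM against 73.6 and 43.1 FPKM, a difference of −2.98 (adjusted p = 0.00736). *csul*, an arginine methyltransferase, differed by −1.38. Of the 11 genes of this list 3 were lower (27.3%, beside 14.1% of all loci). The remaining 8 were not called, and the list's median was −0.49. Of 20 genes for localisation, translation control and decay of mRNA, 6 were lower (30%, beside 14.1% of all loci) and 0 higher, with a median of −0.59. The 3 with the largest differences serve decay. *XRN1*, the exonuclease that degrades decapped RNA, had 10.6 and 6.03 FPKM against 67.6 and 56.1 FPKM, a difference of −2.79 (adjusted p = 0.00855). *Ge-1*, a scaffold of decapping, had 21 and 13 FPKM against 81.7 and 77.1 FPKM, a difference of −2.19 (adjusted p = 0.0114), and *Dcp2*, the decapping enzyme, had 10.3 and 5.55 FPKM against 30.7 and 26.8 FPKM, a difference of −1.79 (adjusted p = 0.0174). A locus of *larp* differed by −1.30.

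Chromatin and transcription genes were lower or not called. Of 24 chromatin regulators 8 were lower (33.3%, beside 14.1% of all loci) and 0 higher, with a median of −0.78. *E(z)*, the methyltransferase of the Polycomb system, had 15.2 and 8.62 FPKM in females and 83.4 and 81.5 in males, a difference of −2.74 (adjusted p = 0.00816). *Bre1*, a histone ubiquitin ligase, *mof*, a histone acetyltransferase, and the deacetylase gene *Hdac3* differed by −2.01, −1.70 and −1.63. *mof* had 11.7 and 8.2 FPKM against 37.7 and 31 FPKM, and its later differences were −0.21 and −0.13. Of 20 loci of Mediator subunits 6 were lower (30%, beside 14.1% of all loci), led by *MED17* at −1.46, *MED12* at −1.34, *MED16* at −1.33 and *MED31* at −1.21. The median of the 20 was −0.23, or 0.05 with median-ratio scaling. Of 16 genes of RNA polymerase II and its general factors 4 were lower (25%, beside 14.1% of all loci). These were *Taf11* at −1.46, *Taf1* at −1.43, *RpII140* at −1.33 and, not under all 3 scalings, *Taf12* at −0.87. Genes outside the lists with the largest differences included *tho2*, of the complex that packages mRNA for export, with 15 and 8.6 FPKM against 96.4 and 108 FPKM, a difference of −3.06 (adjusted p = 0.00736). *Rtf1*, an elongation factor, had 5.74 and 3.23 FPKM against 40.3 and 35.1 FPKM, a difference of −2.86. *EloA*, of the Elongin complex, and *Pimet*, which in *Drosophila* methylates small RNAs, differed by −2.85 and −2.81.

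Of 24 splicing factors 5 were lower (20.8%, beside 14.1% of all loci) and 3 higher (12.5%, beside 4.34%), and the median was −0.41. *Pnn* had 25.4 and 13.9 FPKM in females and 103 and 109 in males, a difference of −2.43 (adjusted p = 0.0115). *Bx42* had 85.4 and 61.8 FPKM against 235 and 220 FPKM, a difference of −1.63, and *crn* and *Snf* differed by −1.82 and −2.10. The higher 3 were *Lsm7* at 0.89, *Smb* at 0.77 and *Prp19* at 0.74, outside the rule for named genes and named after their values were seen. *Smb*, a core protein of the spliceosomal particles, had 672 and 705 FPKM against 400 and 406 FPKM. Of 21 nuclear pore and transport genes 5 were lower (23.8%, beside 14.1% of all loci). Among them *mbo*, a nucleoporin, was at 13.1 and 7.62 FPKM against 64.2 and 63.6 FPKM, a difference of −2.56 (adjusted p = 0.00736). A locus of *NUP50*, the importin gene *IPO7* and *Nup107* differed by −1.93, −1.55 and −1.11.

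Groups of protein production, folding and metabolism had few members each. Of 11 translation factors 2 were lower (18.2%, beside 14.1% of all loci), *eIF3-S8* at −1.51 and *eIF5B* at −1.29, the latter not under all 3 scalings. Of 12 aminoacyl-tRNA synthetases 3 were lower (25%, beside 14.1% of all loci), *Aats-glupro* at −1.74, *Aats-val* at −1.43 and, not under all 3 scalings, *Aats-phe* at −0.91. Of 11 chaperones 5 were lower (45.5%, beside 14.1% of all loci), with a median of −0.80. The mitochondrial *Hsc70-5* led them at 63.7 and 45.6 FPKM against 146 and 159 FPKM, a difference of −1.48 (adjusted p = 0.0129). Of 8 proteasome genes, *Rpn9* and *Tbp-1* were lower at −1.05 and −1.29 (25%, beside 14.1% of all loci). *Pros26* was higher at 0.70 (12.5%, beside 4.34% of all loci). The median of the 8 was −0.27, or 0.08 with median-ratio scaling. Of 7 genes of glycolysis and the citric acid cycle 3 were lower (42.9%, beside 14.1% of all loci). These were *Idh* at −1.64, *Pgk* at −1.34 and, not under all 3 scalings, *Scsalpha* at −0.76. Of 29 detoxification and antioxidant genes 4 were lower (13.8%, no more than the 14.1% of all loci) and 0 higher. Their median of −0.12 was 0.21 with median-ratio scaling. *Trxr-1*, thioredoxin reductase, had 66.1 and 48.1 FPKM against 171 and 162 FPKM, a difference of −1.54 (adjusted p = 0.0123). Of 18 genes of actin and cleavage 1 was lower (5.56%, beside 14.1% of all loci), *Arpc3A*, at −0.89 and not under all 3 scalings. Of 5 mitochondrial import genes 0 were called.

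**Figure D4:**
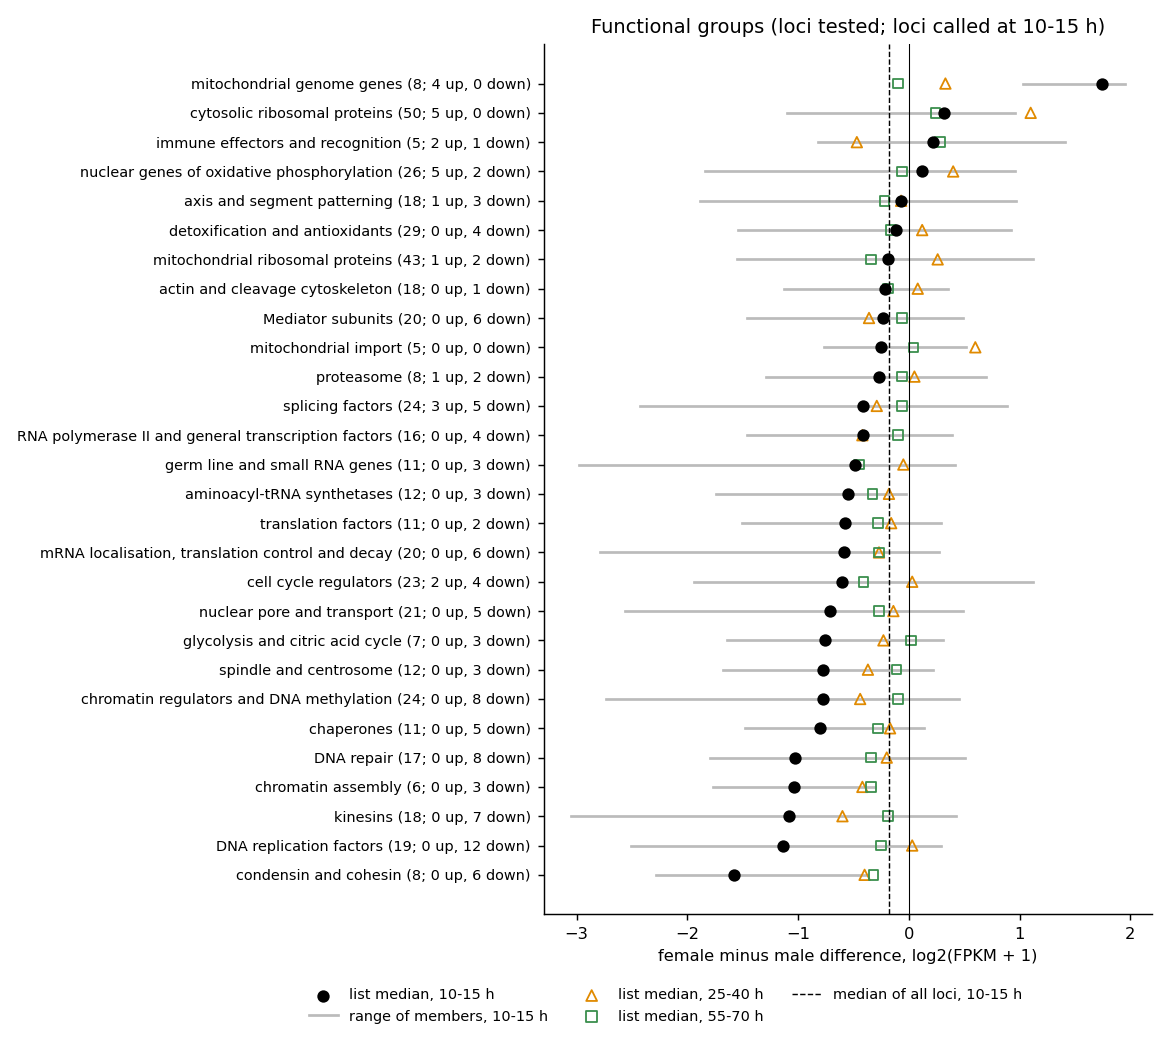
Female minus male differences (x axis, log2(FPKM + 1)) of the functional groups with at least 5 tested loci, with the number tested and called beside each name. Black points are list medians at 10–15 h, grey lines the range of the members, triangles and squares the medians at 25–40 h and 55–70 h, and the dashed line the median of all loci. The mitochondrial genome lies highest at 1.74 and condensin and cohesin lowest at −1.58, and both groups lie nearer 0 at the later ages.

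Of 33 listed patterning genes of the body axes, 18 reached a mean of 1 FPKM, of which 3 were lower (16.7%, beside 14.1% of all loci) and 1 higher (5.56%, beside 4.34%), with a median of −0.07, or 0.26 with median-ratio scaling. *gt*, a gap gene that in *Drosophila* sets up body regions, had 86.1 and 65.3 FPKM in females and 300 and 257 in males, which is −1.88 on the log2 scale (standard error 0.52, adjusted p = 0.0323). It stayed at 56.1 to 305 FPKM at 25–40 h and was at 1.09 to 3.78 FPKM at 55–70 h in both sexes. *h* had 0.655 and 0.0368 FPKM against 4.08 and 3.64 FPKM, a difference of −1.89 (adjusted p = 0.00672), and by 25–40 h it was at 126 to 148 FPKM in all 4 libraries. *tsl*, a terminal-system gene in *Drosophila*, differed by −1.37. *Scr*, a Hox gene of the head and thorax, was higher, with 25.9 and 25.5 FPKM against 12.8 and 12.5 FPKM, a difference of 0.97 (adjusted p = 0.0236).

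The genes of the sex pathway did not pass the test. In the 4 libraries of 10–15 h *Fem* was at 0.213 to 0.66 FPKM and the 3 loci named *Csd* were at or below 1.25 FPKM, so none entered the test. *Dsx*, the regulator at the end of the pathway, had 3.12 and 2.44 FPKM in females and 1.39 and 0.987 in males, which is 0.79 on the log2 scale (standard error 0.25, adjusted p = 0.0503). *tra2*, a splicing factor that acts with *fem*, had 260 and 227 FPKM against 271 and 242 FPKM, a difference of −0.08 (adjusted p = 0.82). The locus that holds *glu*, on chromosome 11 from 1066626 to 1096455, joins 3 genes. It had 1913 and 1560 FPKM in females and 1535 and 1405 in males, a difference of 0.23 (adjusted p = 0.418), in a fit that lacked 1 later library. A single *Csd* locus was listed at 0 in all 4 libraries of 10–15 h and in the 4 later female libraries, and was at 59.3 and 65.9 FPKM in the male libraries of 25–40 h and at 332 and 52.2 FPKM in those of 55–70 h. It thus followed the sex labels at the later ages and gave no check of them at 10–15 h. The other loci named *Csd* did not follow the labels in this way. At the later ages they were at 5.33 to 45.8 FPKM in females and 21.4 to 82.9 FPKM in males. Gene-level FPKM hold no splice forms.

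Single genes outside the large groups were also higher in females. *unc5-1*, a netrin receptor, on chromosome 10 from 1056555 to 1105065, had 16.7 and 17.4 FPKM in females and 2.79 and 5.27 in males, or 1.89 on the log2 scale (standard error 0.30, adjusted p = 0.00736). *Hil* had 27.2 and 39.3 FPKM against 6.5 and 10.5 FPKM, a difference of 1.86 (adjusted p = 0.0135), and *SP20*, a serine protease gene, 18.4 and 16.6 FPKM against 3.45 and 5.82 FPKM, a difference of 1.75 (adjusted p = 0.0109). The defensin gene *Def1*, an antimicrobial peptide, had 10.1 and 10 FPKM against 2.46 and 3.97 FPKM, a difference of 1.41 (adjusted p = 0.0118). *Def2* was at 0.76, and *PPO*, prophenoloxidase, was lower at −0.82. Loci with only a LOC number were *LOC100577156* (14.7 and 55.7 FPKM against 5.26 and 6.12 FPKM, 2.16), *LOC409463* (2.10), *LOC100578561* (1.91) and *LOC408787* (1.72). A locus of *Myo9*, a myosin, had 3.97 and 3.77 FPKM in females and was below 0.001 FPKM in both male libraries.

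The lowest difference of all named loci was at 1 of the 2 loci named *LOC100578068*, on chromosome 10 from 2906295 to 2911994. It was below 0.001 FPKM in female replicate 1, at 0.703 in female replicate 2, and at 73.2 and 92.2 FPKM in the male libraries, a difference of −5.99 (standard error 0.33, adjusted p = 1.12e-05) that takes the value below 0.001 FPKM as measured. By 25–40 h the sexes were at 9.14 and 8.84 against 6.44 and 5.82 FPKM. A locus of *LOC725123* had 76.1 and 4.1 FPKM against 280 and 243 FPKM, a difference of −3.72. *LOC726124* had 4.69 and 0.255 FPKM against 22.9 and 25.2 FPKM, a difference of −3.23. At both the female libraries were far apart from each other. A locus of *LOC725697* was below 0.001 FPKM in both female libraries and at 5 and 33.1 FPKM in the male libraries. In all, 22 kept loci were below 0.001 FPKM in both female libraries and 21 in both male libraries. Such a value may be a failed estimate, so no difference is given where both libraries of a sex were below 0.001 FPKM.

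Summed marker levels of the royal jelly, muscle and cilium lists were lower in both female than in both male libraries, and those of the cuticle list were higher. Those of the eggshell and oocyte list were lower too, and equal the levels of *yl* alone at the digits given. The fat body sums were higher in females, but at the nearest by 88.6 against 87.9 FPKM, and those of the neuron list overlapped. Of 28 neuron genes with valid estimates, 16 reached a mean of 1 FPKM and 2 were below 0.001 FPKM in all 4 libraries. Their sum was 52.8 to 64 FPKM in females and 54.4 to 60.9 in males. Of the 16, 3 loci were higher (18.8%, beside 4.34% of all loci). These were *NLG-1*, a neuroligin, at 1.29 and 2 loci of *nAChRa7*, an acetylcholine receptor subunit, at 0.92 and 0.65. A locus of *Rdl*, a GABA receptor, was lower at −1.25. Of 27 cuticle genes 5 reached 1 FPKM and 0 were called. *CPR13* carried most of their sum of 144 to 149 FPKM in females and 123 to 134 in males. Muscle genes summed to 46.9 to 62.6 FPKM in females and 72.4 to 83.9 in males, with *TpnCIIa* lower at −1.14 but not under all 3 scalings. Fat body and haemolymph genes summed to 88.6 to 131 and 81.6 to 87.9 FPKM. Of the 4 tested, 2 had a difference above 0 and 2 below, with a median of −0.23. *Hex70a*, a storage protein, was called lower at −1.09. Royal jelly proteins were at 4.13 to 9.55 and 10.7 to 12.4 FPKM, with *Mrjp5* lower at −1.39. Cilium and sperm genes, of which 2 of 11 reached 1 FPKM, were at 2.64 to 3.39 and 7.54 to 9.02 FPKM, with *rempA* lower at −1.30. Of 3 eggshell and oocyte receptor genes, *yl*, the yolk protein receptor, had 310 and 231 FPKM in females and 443 and 450 in males, a difference of −0.74 (adjusted p = 0.105). At 25–40 h it was at 4.58 and 3.35 FPKM in females and 59.3 and 44.2 in males. The part of these tissues in the other differences was not tested.

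The calls were spread over the genome. On the 16 chromosomes 2.16% to 8.4% of the loci were higher and 11% to 17.3% lower, and on the mitochondrial genome 6 of 12 loci were higher and 0 lower. They were not spread evenly over locus span, the genomic distance from start to end. Loci of a single gene were split into 5 equal classes of span. The shortest class, 259 to 2093 bp, had 8.47% lower, and the longest, 13305 to 904461 bp, had 8.73% lower. The share was 20.1%, 21.8% and 18.9% in the classes between, and the share called higher was 6.76% in the longest class and 1.54% to 4.88% in the others. The part of span in the result was not tested.

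In the main fit the later libraries entered the calls at 10–15 h only through the spread. Under median-ratio scaling and quantile normalization they also entered the scaling. Over 25–40 h and 55–70 h the median difference of the 1096 loci lower at 10–15 h was −0.26, beside −0.18 for all loci, and 82.6% were below 0, beside 70.5% of all loci. For the 338 higher loci it was −0.07 with 57.7% below 0. Averaged over the later ages 534 loci passed the test (6.86% of 7781), 359 lower and 175 higher in females. Without later estimates in a group, 8 loci were not tested. Of the 1096 lower loci 40 were called lower and 6 higher at the later ages, and of the 338 higher loci 18 were called higher and 20 lower. The difference at 10–15 h minus that at the later ages passed the test at 454 loci (5.83%), of which 182 were among the 1096 and 123 among the 338. Loci chosen by the difference at 10–15 h are favoured in that count, so nothing is read from it. That count was 3 without male 10–15 h replicate 1, 19 without male 10–15 h replicate 2 and 87 without female 10–15 h replicate 2. It was 1131 without female 25–40 h replicate 2, 85 without male 25–40 h replicate 1, 118 and 213 without female 55–70 h replicates 1 and 2, and 246 without male 55–70 h replicate 2. The count of the later ages was 1160 and 236 without female 25–40 h replicates 1 and 2, and 145 without male 25–40 h replicate 1. It was 162 without female 55–70 h replicate 1, 287 without male 55–70 h replicate 1, and 347 and 348 without male 10–15 h replicates 1 and 2.

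By level, the lower set had a median of 24.3 FPKM in males and 7.91 in females at 10–15 h. At 25–40 h the male median was 20.9 and the female median 15.9, and at 55–70 h they were 20 and 17.8. The higher set had a median of 18 FPKM in females and 7.16 in males at 10–15 h. At 25–40 h the female median was 7.62 and the male median 7.76. Within the lower set the female 25–40 h libraries differed as well, at a median log2(FPKM + 1) of 4.44 and 3.58.

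**Figure D5:**
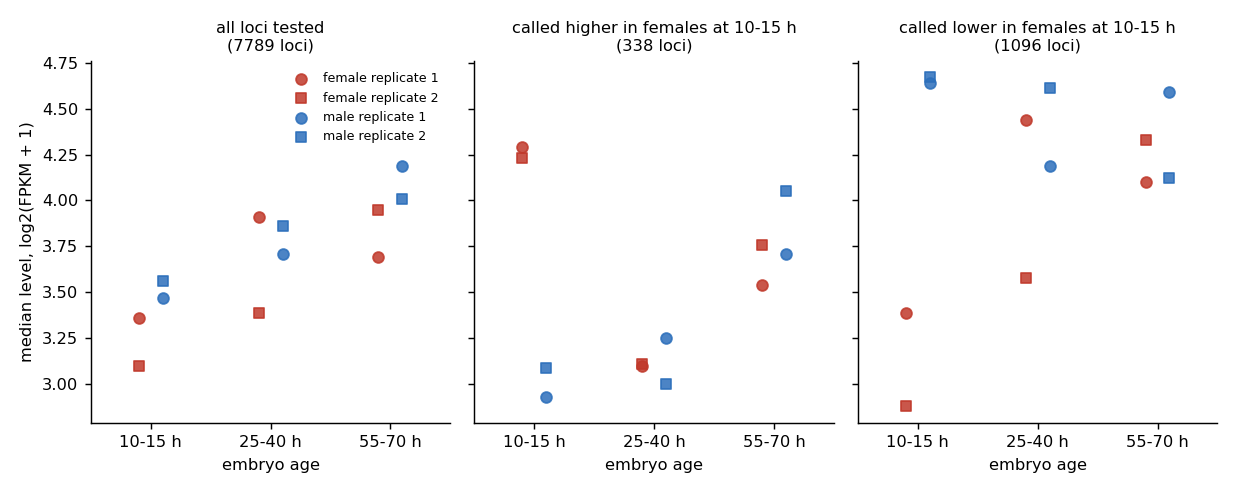
Median level (y axis, log2(FPKM + 1)) in each of the 12 libraries of all 7789 loci, of the 338 loci higher and of the 1096 loci lower in females at 10–15 h, by embryo age (x axis). At 10–15 h the sexes are apart in both called sets, as the selection requires, with 3.39 and 2.88 in females against 4.64 and 4.67 in males in the lower set, while in both called sets the female and male libraries overlap at the later ages.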

How the data were processed

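The authors deposited a table per library with FPKM per locus, lower and upper bounds in FPKM, and a status. According to the submitters' notes on processing, TopHat2 was used with Bowtie2 2.2.6 and then Cufflinks 2.2.1. Parameters and the build were not stated there. FPKM scale fragments to transcript length and library, so a gain of abundant transcripts lowers all others. Locus names and positions are those of the files, and strand was not stated, so overlapping genes may share fragments.

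Loci with a valid status in the 4 libraries of 10–15 h and a mean of at least 1 FPKM were tested as log2(FPKM + 1), a pseudocount of 1, which understates changes of low loci. A model of 6 group means was fitted to 12 libraries with limma 3.58.1 in R 4.3.3 and a variance trend. Benjamini–Hochberg adjustment covered all tested loci. The fit had 6 residual and 5.13 prior degrees of freedom. In 84 kept loci a later value without a valid status was set to missing. Tables and figures were made with Python 3.11.15, pandas 2.3.3, numpy 2.4.6 and matplotlib 3.10.9.

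The comparison and the 36 gene lists (29 functional groups, 7 sets of tissue markers) were chosen with earlier results of these data known, and the lists were completed after the symbols in the files were seen. Lists hold loci of a single gene name only and got no test of their own. The shares of all loci given beside them also cover loci with no name or with several names. Counts in the lists are counts of loci, and a gene such as *MED21* can enter with more than 1 locus. Genes named are the 10 most abundant single-gene loci, up to 10 called loci of largest difference per direction (at most 4 with a LOC number), up to 4 called members per list, or its most abundant member where none was called, and the sex pathway genes. Called genes had to be above 0 in the 4 libraries, with sexes that did not overlap. Several symbols name more than 1 locus. *LOC100578068*, *LOC725123*, *LOC725697*, *Myo9*, *NUP50*, *larp* and *nAChRa7* each name 2 loci, and *Rdl* and *Csd* each name 3. Each value given for such a symbol is that of a single locus. Relative depth was taken from the width of the bounds.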

Additional observations from a re-analysis of the deposited data

Results flagged for a closer look

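For 30 of the 133 named loci that were tested, the female minus male difference at 10–15 h differed from that averaged over the later ages in limma's test of the difference itself (adjusted p under 0.05 over all loci). Values are the first minus the second on the log2(FPKM + 1) scale, and these calls depend on single libraries and on the replicate block as given below. Most named loci were chosen by their difference at 10–15 h, which favours such a result, so the values are a description. Among higher values, *LOC100576271* was at 3.17, *LOC408787* at 3.11, *LOC100578561* at 2.66 and *LOC100577156* at 2.54. *LOC726468* was at 1.78, *SP20* at 1.68, *LOC408817* at 1.58, *NLG-1* at 1.43 and *Def1* at 1.27. *LOC408817* was not itself called at 10–15 h, with −0.11 then and −1.69 later, and *LOC726468* was at 0.85 then and −0.93 later.

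Among lower values, a locus of *LOC100578068* was at −6.35, with a value below 0.001 FPKM in female replicate 1 taken as measured, and *LOC726124* at −2.97. Genes of DNA copying and repair were *DNApol-alpha50* at −2.42, *RpA-70* at −2.33, *RnrS* at −2.17, *Orc1* at −1.65 and *Rad54* at −1.61, and the cohesin gene *SMC1* was at −1.97. Genes of RNA and chromatin were *tho2* at −2.68, *XRN1* at −2.41, *Pimet* at −2.38, *Rtf1* at −2.26, *Snf* at −2.14, *mof* at −1.54 and *MED31* at −1.44. The rest were *mbo* at −2.23, *CytC* at −2.17, *h* at −1.91, *Trxr-1* at −1.58, *Tbp-1* at −1.32 and *RFeSP* at −1.09.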

How the results depend on the processing

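The counts of loci higher and lower in females were 338 and 1096. They were 182 and 562 with no filter on low values, and 167 and 490 with a replicate block. The higher count was 1046 with median-ratio scaling and 1043 with quantile normalization. Left-out libraries gave 2 to 406 loci higher and 10 to 1470 lower. The count whose difference changed from 10–15 h to the later ages, 454, was 165 with no filter, 1335 with median-ratio scaling, 1502 with quantile normalization, 724 with rescaling to the same sum, 4 with the replicate block and 3 to 1131 with a library left out. The count over the later ages, 534, was 851 with no filter, 348 with quantile normalization, 867 with rescaling to the same sum, 354 with the block and 145 to 1160 with a library left out. The cause was not tested. The replicate numbers are not taken to pair the samples. At 10–15 h, the only age checked, the deviations of same-numbered libraries had a correlation of −0.0548 across loci.

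Of the 121 called named loci, whose sexes do not overlap by the rule that chose them, calls were lost at 116 without female replicate 2, at 120 and 111 without male replicates 1 and 2, at 26 without female replicate 1, at 17 without either female replicate of 55–70 h, at 29 with a pseudocount of 5, at 49 with the block and at 50 with no filter. With median-ratio scaling or quantile normalization 8 were lost each. Both of these alternatives were added after the data were seen: only loci above 0 in all 4 libraries, and the midpoint of the bounds in place of the FPKM. The first could not remove a named call, since the rule required values above 0, and under the second all 121 named calls held. With 2 libraries a sex and no read counts, small differences of loci with low FPKM are beyond what these data can show.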
